A study of Mus musculus with 2 samples.

Results

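The cells described here are mature dendritic cells of mouse skin, 106 of 12558 cells that passed the quality filter, among 14146 barcodes in all. They were selected on measured UMIs (counted transcript molecules): at least 2 of Ccr7, at least 1 of Fscn1, at least 5 of Cd74, fewer than 20 of S100a8 and S100a9 together, and none of Cd3e. Levels of these genes in the members are therefore a description and not a finding. Of the members, 71 came from skin challenged with DPCP (diphenylcyclopropenone, a contact sensitizer) and harvested on day 2, and 35 from control skin of day 0. Cells that carry CD45, the leukocyte surface marker, had been sorted from full-thickness skin after Liberase TM digestion, and both conditions share this preparation and 1 pooled 10x 3' library. Strain, genotype, age and the number of mice were not given in the sources used here. Each condition is 1 tagged sample, so no test between conditions was possible, and every 95% interval below covers counting error only.

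Dendritic cells take up antigen in tissue and, once activated, leave for the draining lymph node. During that change they switch on Ccr7, a chemokine receptor that guides them along lymphatic vessels, and Fscn1, an actin-bundling protein of their dendrites, and they raise ligands that stimulate or restrain T cells. Langerhans cells of the epidermis and the type 1 and type 2 conventional dendritic cells of the dermis can all enter this mature state. DPCP is used to provoke contact hypersensitivity, a T cell response in which migratory dendritic cells carry the sensitizing antigen.

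The 2 conditions were told apart by lipid-linked tags, whose sequences are shown because every comparison rests on them.
DPCP day 2: gttgatctataacag
control day 0: gaatcgtgattcttc
In the members, the cell's own tag made up 87.8% of tag UMIs on DPCP cells and 97.2% on control cells. At least 80% own tag was found on 44 of 71 DPCP members and on 35 of 35 control members. No barcode was shared between the conditions. Members held a median of 15507 UMIs and 3923 genes in DPCP skin, against 12368 UMIs and 3342 genes in control skin. Their summed totals were 1241432 UMIs for DPCP and 487402 for control. The median mitochondrial share was 1.95% in DPCP members and 1.98% in control members. S100a8 and S100a9, abundant in neutrophils, summed to between 3 and 16 UMIs (median 7) in DPCP members and between 0 and 13 (median 6) in control members.

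Members made up 0.936% of kept DPCP cells (71 of 7588, exact 95% interval 0.731 to 1.18) and 0.704% of kept control cells (35 of 4970, 0.491 to 0.978), so the intervals overlap. Denominators differed, as 5004 kept DPCP cells and 147 kept control cells held at least 20 UMIs of S100a8 and S100a9. Among cells below that limit, members were 2.75% in DPCP skin (71 of 2584, 2.15 to 3.45) and 0.726% in control skin (35 of 4823, 0.506 to 1.01). Among cells that also met the Cd74 and Cd3e conditions, they were 5.77% in DPCP skin (71 of 1231) and 0.975% in control skin (35 of 3589). A rule applied after thinning each cell to 2000 UMIs, with lower limits for Ccr7, Cd74 and the S100 UMIs, gave 0.791% for DPCP (54 of 6829) and 0.580% for control (27 of 4656). Of these cells, 49 in DPCP and 24 in control skin were members by the main rule, so the 2 rules do not select the same cells. The limit on S100 UMIs removed 18 DPCP cells and 0 control cells that met every Ccr7 and Fscn1 condition. Leaving out the 5% of kept cells with the most UMIs lowered the DPCP share to 0.61%, against 0.657% in control skin. That cut was set on all kept cells of each condition, not on members. It therefore removed more than 5% of the members, and a larger part of the DPCP than of the control members. The same cut is meant wherever the cells with the most UMIs are left out below. Shares of sorted cells are not numbers of cells per area of skin.

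Near the threshold, 2 DPCP and 3 control members held exactly 2 Ccr7 UMIs. Just outside it, 3 DPCP and 7 control cells held 1 Ccr7 UMI with the other conditions met. The 2 DPCP members just inside had Fscn1 at 3389 CPM and Ccl22 at 424 CPM, and the 3 DPCP cells just outside had Fscn1 at 253 CPM and Ccl22 at 126 CPM. In control skin the order was the other way. The 7 control cells just outside had Fscn1 at 1654 CPM and Ccl22 at 2054 CPM, and the 3 control members just inside had Fscn1 at 457 CPM and Ccl22 at 860 CPM. A further 22 DPCP and 7 control cells had at least 2 Ccr7 UMIs but none of Fscn1. CPM here means the UMIs of a gene per 1000000 UMIs summed over a set of cells.

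The label was held against 6 markers, of which Ccr7 and Fscn1 belong to the selection. Ccr7 (ENSMUSG00000037944, mm10 chromosome 11, 99144196 to 99155077, minus strand) was at 1900.2 CPM in DPCP members and 1011 CPM in control members. Fscn1 (ENSMUSG00000029581, chromosome 5, 142960343 to 142973185, plus strand) was at 2134 CPM in DPCP members and 1633 CPM in control members. Ccl22, a chemokine that draws CCR4-bearing T cells, was found in 64 of 71 DPCP and 33 of 35 control members, at 2489.9 and 2117 CPM. Il4i1, a secreted amino acid oxidase, was in 71 DPCP and 34 control members, at 1539 and 1048 CPM. Cacnb3, a calcium channel subunit, was in 70 and 35 members, at 678 CPM for DPCP and 599 CPM for control. Relb, the NF-kappaB subunit tied to dendritic cell maturation, was at 676 CPM in DPCP and 979 CPM in control members. In dendritic cells without Ccr7 the levels were lower, to differing extents. Il4i1 was at 3.67 CPM in 170 DPCP and 6.34 CPM in 670 control type 2 cells (chosen on Cd209a). Ccl22 was at 21.5 CPM in 40 DPCP and 506 CPM in 38 control Langerhans cells (chosen on Cd207 and Epcam), where 7.89% of the control cells held it. Relb was at 79.8 CPM in DPCP and 52.1 CPM in control Langerhans cells. Ccr7 and Fscn1 were present in every member by selection and do not bear on the label. The markers outside the selection, Ccl22, Il4i1, Cacnb3 and Relb, were in most members of both conditions, and the label was kept.

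**Figure D1:**
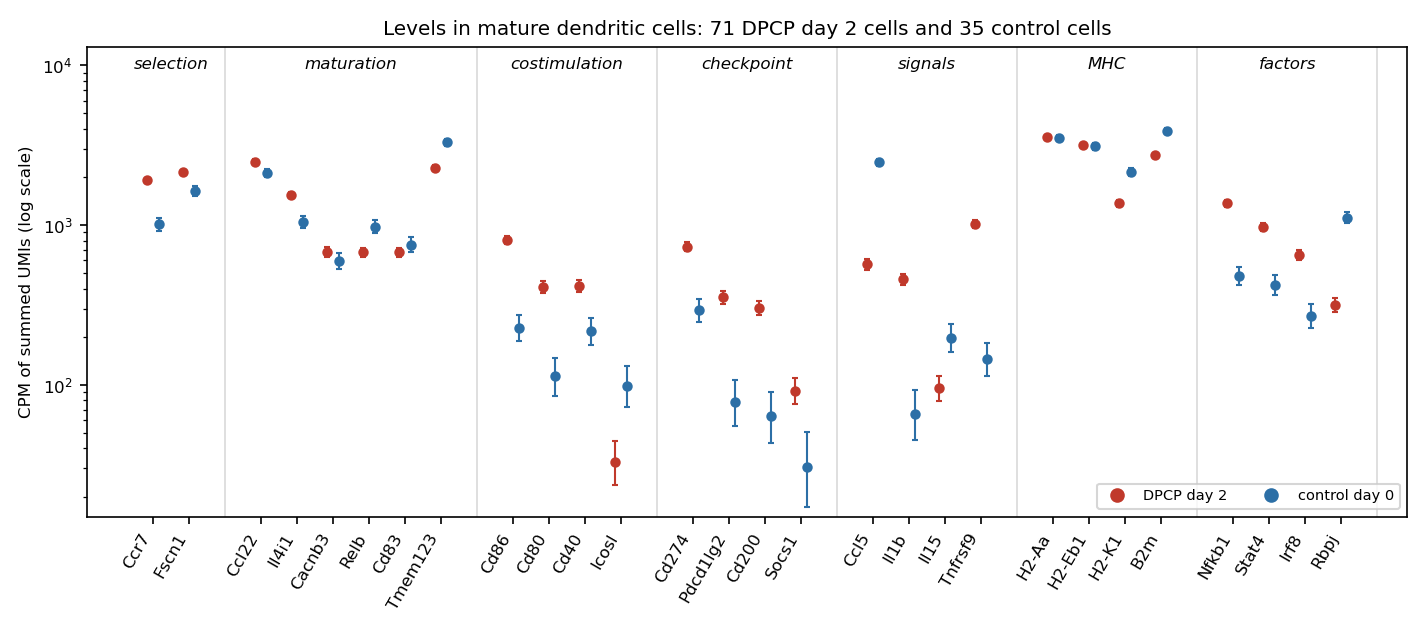
Levels of 28 genes in the members of DPCP skin (red, left of each pair) and control skin (blue, right), as CPM of summed UMIs on a log axis. Bars are exact Poisson 95% intervals that cover counting error only. Cd86, Cd80, Cd274 and Tnfrsf9 lie higher in DPCP members, Ccl5, Icosl and Rbpj lie higher in control members, and the class II genes H2-Aa and H2-Eb1 lie together.

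The CD28 ligands Cd86 and Cd80 were higher in DPCP members, and Icosl was lower. Cd86 (chromosome 16, 36603869 to 36666081, minus strand), which with Cd80 engages CD28 on T cells, was detected in 69 of 71 DPCP members and 13 of 35 control members. Per 10000 UMIs its lowest, median and highest values were 0, 6.05 and 34.6 in DPCP members, against 0, 0 and 23 in control members. The ranges overlap, but the median control member had no Cd86 UMI. Summed, Cd86 was at 806 CPM in DPCP members and 228 CPM in control members, a ratio of 3.54 (95% interval 2.91 to 4.35). One control member held 68 of the 111 control UMIs, and without the highest cell of each condition the ratio was 8.04 (95% interval 5.92 to 11.2). After thinning to 1000 UMIs per cell, 50.7% of DPCP members and 14.3% of control members kept a Cd86 UMI. T cells gave 5.76% and 4.06% (DPCP and control, median 8368 and 8965 UMIs before thinning).

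Cd80 was in 56 DPCP and 13 control members, at 409 and 113 CPM, a ratio of 3.63 (95% interval 2.74 to 4.88). Without the highest cell of each condition this ratio was 5.77 (95% interval 3.98 to 8.65). Cd40, the receptor for CD40 ligand on helper T cells, was at 418 CPM in DPCP members and 217 CPM in control members, and Tnfsf4, the OX40 ligand, at 49.9 and 16.4 CPM. Cd83, a classical surface marker of mature dendritic cells, was at 675 CPM in DPCP and 755 CPM in control members, with a ratio of 0.894 (95% interval 0.79 to 1.01). Icosl, the ligand of ICOS, ran the other way, at 33 CPM in DPCP members (15 of 71 cells) and 98.5 CPM in control members (19 of 35). Without members holding a Cd207, Epcam or Cldn1 UMI the Cd40 ratio was 1.19 (95% interval 0.916 to 1.55), which ends its call. Among members with at least 80% own tag the Tnfsf4 ratio was 0.899 (95% interval 0.345 to 2.5), so its direction turned. Cd40 and Tnfsf4 were chosen after their values were seen. Of the 9 ligands with at least 50 summed UMIs, 4 were higher and 1 lower in DPCP members by at least 1.5-fold with an interval that excluded 1. By that rule 16.1% of the 4802 genes tested were higher and 9.16% lower. The median log2 ratio of the list was 0.39, and that of all genes 0.09. These values for all genes stand beside every list count and median below.

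**Figure D2:**
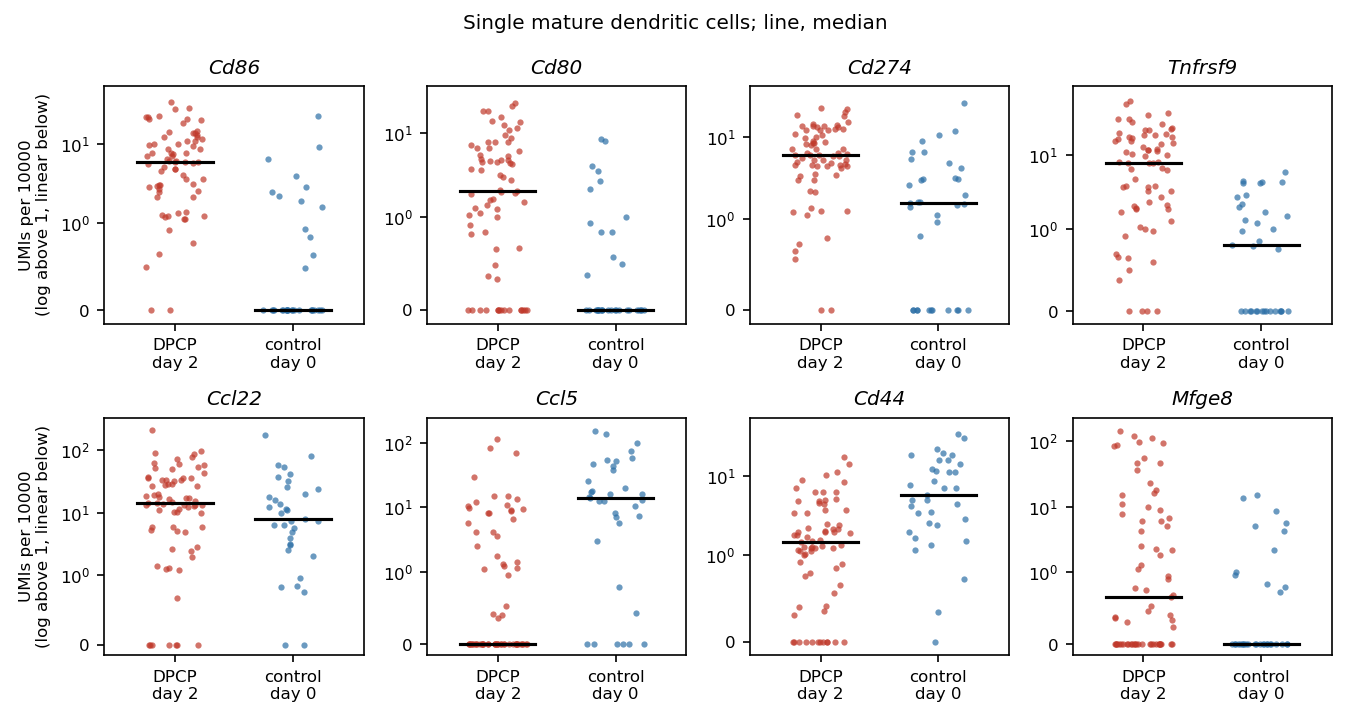
Each point is 1 member, with DPCP day 2 on the left and control day 0 on the right of each panel. The y axis is UMIs per 10000 (log above 1, linear below) and the line marks the median. Most control members have no Cd86 or Cd80 UMI, most DPCP members have no Ccl5 UMI, and Ccl22 overlaps between the conditions.

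The inhibitory ligands Cd274, Pdcd1lg2 and Cd200 were higher in DPCP members. Cd274, which encodes PD-L1, was in 69 DPCP and 24 control members, with medians of 6.1 and 1.57 UMIs per 10000. Its summed level was 729.8 CPM in DPCP members and 293 CPM in control members, a ratio of 2.49 (95% interval 2.08 to 2.99). S100-rich DPCP cells (at least 20 S100a8 and S100a9 UMIs) also held it, at 374 CPM. Pdcd1lg2, which encodes PD-L2, was at 353 CPM in DPCP and 78 CPM in control members (47 of 71 and 11 of 35 cells), a ratio of 4.53 (95% interval 3.25 to 6.48). Cd200, the ligand of an inhibitory receptor on myeloid cells, was at 302 CPM in DPCP and 63.6 CPM in control members, a ratio of 4.75 (95% interval 3.29 to 7.09). Pdcd1lg2 and Cd200 were chosen after their values were seen. The cytokine signalling inhibitors Socs1 and Socs3 were at 91.8 and 57.2 CPM in DPCP members, against 30.8 and 8.21 CPM in control members. Aldh1a2, which makes retinoic acid, was lower, at 58.8 CPM in DPCP members and 137 CPM in control members, though 10 and 12 cells carried it. Of 12 measured genes of the checkpoint and regulatory list, 7 were higher and 1 lower, with a median log2 ratio of 1.04.

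Tnfrsf9, the costimulatory receptor 4-1BB (chromosome 4, 150914562 to 150946102, plus strand), had the highest ratio of the maturation list. Its lowest, median and highest values per 10000 UMIs were 0, 7.8 and 52.6 in DPCP members and 0, 0.809 and 5.75 in control members. At 1019.8 CPM in DPCP members and 146 CPM in control members, the ratio was 7 (95% interval 5.51 to 9.02). It was also higher in DPCP than in control Langerhans cells, at 633 and 6.51 CPM, and in T cells stood at 246 and 72.5 CPM. Over the whole maturation list of 38 measured genes, 12 were higher and 9 lower in DPCP members, with a median log2 ratio of 0.12. Serpinb9, an inhibitor of granzyme B, was among the higher ones at 777 CPM in DPCP and 308 CPM in control members. Slco5a1, a transporter, and H2-M2, a nonclassical class I gene, were among the lower ones. Without the 5% of cells with the most UMIs the ratio was 4.04 for Serpinb9 and 0.684 (95% interval 0.572 to 0.818) for H2-M2. Slco5a1 was at 182 CPM in DPCP and 464 CPM in control members, and H2-M2 at 219.9 and 646 CPM. Serpinb9, Slco5a1 and H2-M2 were chosen after their values were seen.

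Chemokines went both ways. Ccl5, a chemokine that attracts T cells (chromosome 11, 83525778 to 83530518, minus strand), was in 33 of 71 DPCP members but 29 of 35 control members. The lowest, median and highest UMIs per 10000 were 0, 0 and 114 in DPCP members, against 0, 14.1 and 152 in control members. Its level was 566 CPM in DPCP and 2462 CPM in control members, a ratio of 0.23 (95% interval 0.209 to 0.253). After thinning, 21.1% of DPCP and 60% of control members kept a Ccl5 UMI, and T cells gave 2.47% and 1.85%. Cxcl3, which draws neutrophils, was at 216 CPM in DPCP and 14.4 CPM in control members, but 1 DPCP cell held 140 of its 268 DPCP UMIs. S100-rich DPCP cells had Cxcl3 at 849 CPM. Ccl17, the other CCR4 ligand, was at 106 CPM in DPCP and 170.3 CPM in control members. With members holding a Cd207, Epcam or Cldn1 UMI left out, the Ccl17 ratio was 1.63 (95% interval 1.05 to 2.61), and without the highest cell of each condition it was 1.37 (95% interval 0.891 to 2.16), so its direction turned. Without that highest cell the Cxcl3 ratio was 9.75. Ccl17 was chosen after its values were seen. Ccl22 differed little, with a ratio of 1.18 (95% interval 1.1 to 1.26). Of 10 measured chemokines, 4 were higher and 3 lower (16.1% and 9.16% of all genes), with a median of 0.12.

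Among cytokines, Il1b was in 53 DPCP and 14 control members, at 457 and 65.7 CPM, a ratio of 6.96 (95% interval 4.87 to 10.3). This gene was abundant in S100-rich cells, at 3900.2 CPM in DPCP and 692 CPM in control skin. T cells, which lack Il1b, held 145 CPM in DPCP and 47.6 CPM in control skin, and the part of free RNA in the members' value was not tested. Il1rn, the IL-1 receptor antagonist, was at 113 CPM in DPCP members and 32.8 CPM in control members. Il15, a survival factor for memory T and NK cells, was lower, at 95.1 CPM in DPCP and 197 CPM in control members. Il12b, a subunit of IL-12 and IL-23, lay in 8 DPCP and 4 control cells, and single cells held 114 of its 140 DPCP UMIs and 56 of its 71 control UMIs. Without the 5% of cells with the most UMIs the ratio was 11.8 for Il1b and 8.44 for Il1rn. Il1rn and Il12b were chosen after their values were seen. Of 6 measured cytokines, 3 were higher and 1 lower, against 16.1% and 9.16% of all genes.

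Cytokine receptors showed no common direction, with 5 of 25 higher, 4 lower and a median of 0.00. Over all genes 16.1% were higher and 9.16% lower. Il1r2, the decoy receptor for IL-1, was at 189 CPM in DPCP members (31 cells) and 41 CPM in control members (3 cells). It is also on the neutrophil and Langerhans marker lists, and S100-rich DPCP cells had it at 675 CPM. Flt3, the receptor that maintains dendritic cells, was at 620.3 CPM in DPCP and 384 CPM in control members, a ratio of 1.62 (95% interval 1.38 to 1.91). Cd44, the receptor for hyaluronan and osteopontin, was lower, at 263 CPM in DPCP members and 819 CPM in control members, a ratio of 0.322 (95% interval 0.277 to 0.373). Without the limit on S100 UMIs the Cd44 ratio was 0.533. With Ccr7 at 4 or more UMIs the Flt3 ratio was 1.43, below the 1.5-fold limit. The Il1r2 ratio of 4.61 (95% interval 2.92 to 7.69) was 16.2 without the highest cell of each condition and 2.28 without members holding a Cd207, Epcam or Cldn1 UMI. The median of Cd44 was 1.44 UMIs per 10000 in DPCP members and 5.74 in control members, with overlapping ranges. The order was the opposite in S100-rich cells, with Cd44 at 2519 CPM in DPCP and 823 CPM in control skin, and in Langerhans cells, at 1695 and 693 CPM.

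Spp1, the osteopontin gene named in the study's title, was as low in the members as in T cells or nearly so. It stood at 29 CPM in DPCP members and 45.1 CPM in control members, a ratio of 0.642 (95% interval 0.368 to 1.15). T cells held 62.6 CPM in DPCP skin, above the members, and 43.1 CPM in control skin, just below them, while S100-rich DPCP cells reached 2652 CPM. Its receptors on the list were led by Itga4, an integrin subunit that pairs with beta 1 and beta 7, at 1027 CPM in DPCP and 839 CPM in control members. Itga5, the alpha subunit of the fibronectin receptor, was at 99.9 and 39 CPM. Of the 6 measured genes, 2 were higher and 1 lower. Without the 5% of cells with the most UMIs the ratio of Itga5 was 1.23 (95% interval 0.655 to 2.39), which ends its call.

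**Figure D3:**
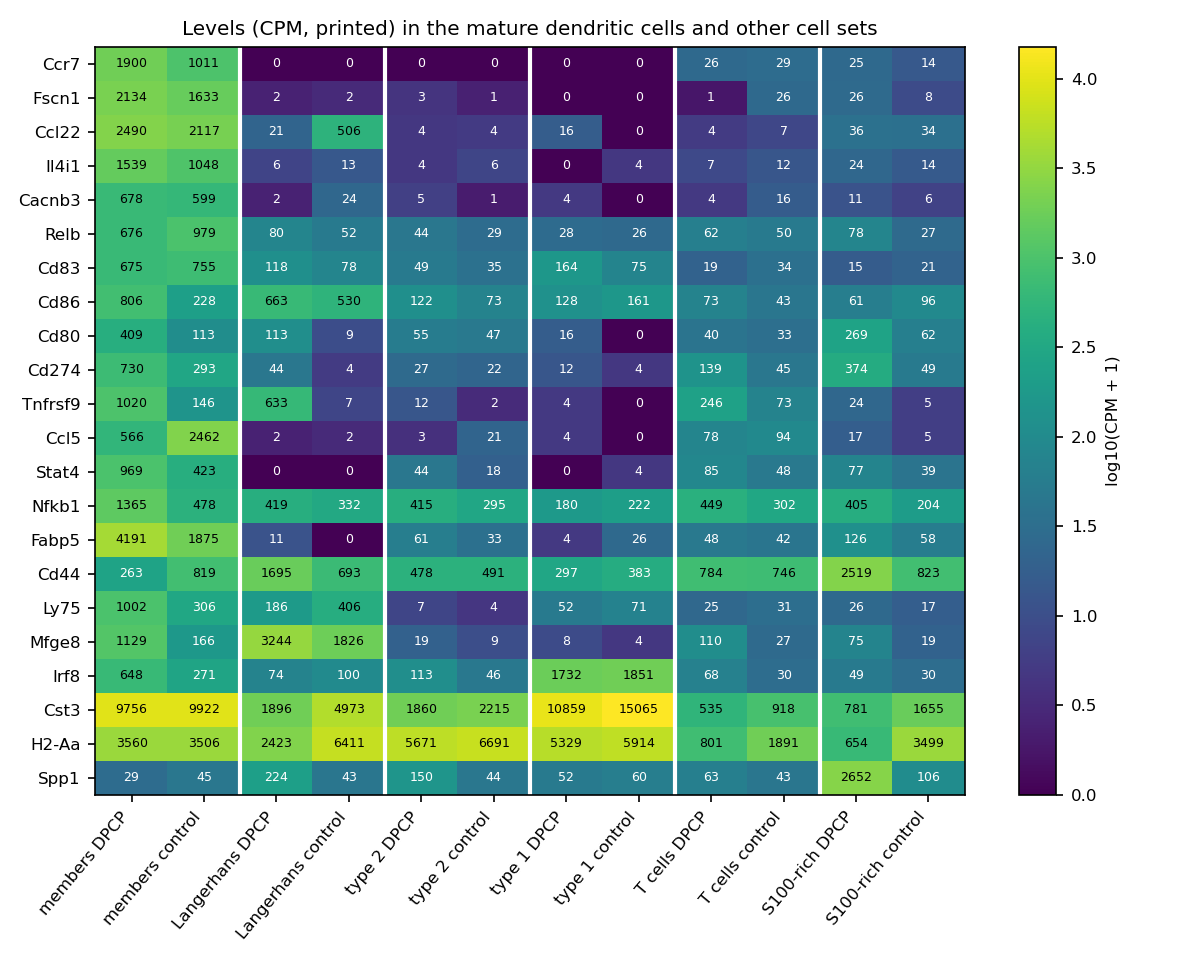
Levels of 22 genes (rows) as log10(CPM + 1), with the CPM printed, in the members, in Langerhans, type 2 and type 1 dendritic cells without Ccr7, in T cells and in S100-rich cells, each with DPCP on the left and control on the right. Il4i1 and Cacnb3 are high in the members alone among these sets, Ly75 and Mfge8 are shared with Langerhans cells, and Spp1 is highest in S100-rich DPCP cells.

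Of 11 measured class II presentation genes, 2 were higher and 1 lower in DPCP members, near the 16.1% and 9.16% of all genes. H2-Aa was at 3560.4 CPM in DPCP and 3506 CPM in control members, and H2-Eb1 at 3169 and 3121 CPM. Lgmn, a lysosomal protease that processes antigen, was at 308 CPM in DPCP members and 121 CPM in control members, and Ciita, the class II transactivator, at 84.6 and 39 CPM. H2-Eb2 was lower, at 124 CPM in DPCP and 375 CPM in control members, although reads of such close relatives can be split uncertainly, as can those of the H2-Q and Bcl2a1 genes. Ciita, and H2-T22 below, were chosen after their values were seen. In the class I list none of 22 genes was higher and 3 were lower, with a median of -0.30. These were H2-K1 at 1366 CPM in DPCP and 2148 CPM in control members, Nlrc5, the class I transactivator, at 182 and 334 CPM, and H2-T22 at 59.6 and 92.3 CPM. After removal of members holding a Cd207, Epcam or Cldn1 UMI, the ratios were 0.708 for H2-K1, 0.815 for Nlrc5 and 0.745 for H2-T22, so no class I call held there. Without the 5% of cells with the most UMIs the Ciita ratio was 1.25 (95% interval 0.565 to 2.9), which ends its call. B2m, the light chain of class I, was at 2736 CPM in DPCP and 3888 CPM in control members.

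Of the uptake receptors, Ly75, which encodes the endocytic receptor DEC-205, had the highest ratio. It was at 1002 CPM in DPCP and 306 CPM in control members, a ratio of 3.28 (95% interval 2.76 to 3.91), with medians of 6.63 and 1.64 UMIs per 10000. Fcer1g, the shared signalling chain of Fc receptors, was lower at 259 CPM in DPCP and 455 CPM in control members. Without the limit on S100 UMIs the Fcer1g ratio was 0.719, short of the 1.5-fold limit. Of 12 measured genes of this list, 4 were higher and 1 lower.

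Signalling through NF-kappaB gave 6 genes of 21 higher and 1 lower, against 16.1% and 9.16% of all genes. Nfkb1, which encodes the p105 and p50 subunit, was in every DPCP member and in 32 of 35 control members. Its median was 11.2 UMIs per 10000 in DPCP and 2.87 in control members, and its level 1365 and 478 CPM, a ratio of 2.85 (95% interval 2.49 to 3.29). Rel was at 1134 CPM in DPCP and 917 CPM in control members, and Birc2, an inhibitor of apoptosis protein that restrains the noncanonical branch, at 342 and 515 CPM. The early response genes of the AP-1 list were higher for 9 of 14 and lower for none, with a median of 0.85. Fosl2 was at 78.9 CPM in DPCP and 18.5 CPM in control members, Nr4a3 at 807 and 396 CPM, and Junb at 545 and 332 CPM. Without members holding a Cd207, Epcam or Cldn1 UMI the ratios of Junb and Birc2 were 1.39 and 0.768, both short of the 1.5-fold limit. Tissue digestion is known to induce such genes. Both conditions were digested, and the part of digestion was not tested.

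Of 8 measured interferon gamma targets, 5 were higher and 2 lower, with a median log2 ratio of 0.90. Irf8, a transcription factor of the type 1 lineage as well, was in 61 DPCP and 17 control members, at 648 and 271 CPM, a ratio of 2.39 (95% interval 1.99 to 2.9). Gbp8, a guanylate-binding protein, was at 49.9 CPM in DPCP and 98.5 CPM in control members. Of 9 measured type I interferon genes 1 was higher and none was lower. With members holding a Cd207, Epcam or Cldn1 UMI left out, the Gbp8 ratio was 0.632 (95% interval 0.373 to 1.08), which ends its call. Isg15 was at 161 CPM in DPCP and 183 CPM in control members, and 1 control cell held 53 of its 89 control UMIs.

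Transcription factors of dendritic cells were higher for 12 of 25 and lower for 1. Stat4, which carries IL-12 signals, was in 55 DPCP and 15 control members, at 969 and 423 CPM, a ratio of 2.29 (95% interval 1.98 to 2.67). Without the highest cell of each condition this ratio was 3.34 (95% interval 2.76 to 4.07). Stat3, which carries signals of IL-6 and IL-10 receptors, was at 1001 CPM in DPCP and 412 CPM in control members. Ikzf4, the zinc finger factor Eos, was at 142 and 22.6 CPM, and Runx3, which Langerhans cells need, at 164 and 41 CPM. Id2, needed for the development of several dendritic cell types, was at 1141 CPM in DPCP and 663 CPM in control members. Rbpj, the DNA-binding partner of Notch, was the 1 lower factor, at 317 CPM in DPCP and 1114 CPM in control members, a ratio of 0.284 (95% interval 0.249 to 0.324). Stat4, Stat3 and Runx3 were chosen after their values were seen.

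Metabolic lists went in opposite directions. Of 16 glycolysis and hypoxia genes 10 were higher and none lower, with Gapdh at 868 CPM in DPCP and 398 CPM in control members and Ndrg1, a hypoxia-induced gene, at 308 and 61.6 CPM. Of 18 cholesterol and lipid genes 10 were lower and 4 higher, with a median of -0.62. The lower ones included Cyp51, an enzyme of cholesterol synthesis, at 50.7 CPM in DPCP and 123 CPM in control members, and Idi1, an isoprenoid enzyme, at 143 and 256 CPM. Without the 5% of cells with the most UMIs the ratio was 0.752 for Idi1, short of the 1.5-fold limit, and 0.649 for Cyp51. Cyp51 was chosen after its values were seen. Apoe, a lipid carrier, was at 32.2 CPM in DPCP and 219.5 CPM in control members, but 1 control cell held 68 of the 107 control UMIs. Without that cell and the highest DPCP cell the Apoe ratio was 0.326. The Ndrg1 ratio of 5 (95% interval 3.44 to 7.51) was 2.85 without members holding a Cd207, Epcam or Cldn1 UMI. Fabp5, a fatty acid binding protein, was at 4191 CPM in DPCP and 1875 CPM in control members, a ratio of 2.23 (95% interval 2.08 to 2.4). Its per-cell ranges overlapped, with medians of 11 and 8.72 UMIs per 10000. The ratio was 1.02 (95% interval 0.922 to 1.13) without the 5% of kept cells with the most UMIs, a cut that removed a larger part of the DPCP members.

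Smaller lists are given by count, beside 16.1% higher and 9.16% lower among all genes by the same rule. Heat shock genes were higher for 5 of 11 and lower for none, Hsp90aa1, a stress-induced chaperone, standing at 447 CPM in DPCP and 181 CPM in control members and Hsph1 at 46.7 and 16.4 CPM. Survival and cell death genes were higher for 4 of 18 and lower for 2, with Bcl2l11, the proapoptotic protein Bim, at 126 CPM in DPCP and 39 CPM in control members. Migration and cytoskeleton genes were higher for 5 of 25 and lower for 6, with Sema7a, a semaphorin, at 321 CPM in DPCP and 121 CPM in control members and Itgax, the integrin CD11c, at 33 and 82.1 CPM. Prostaglandin and eicosanoid genes were higher for 2 of 6, with Ptgs2, the inducible cyclooxygenase, at 72.5 CPM in DPCP and 8.21 CPM in control members. S100-rich DPCP cells had Ptgs2 at 591 CPM. Among members with at least 80% own tag the ratio of Ptgs2 was 1.94 (95% interval 0.608 to 8.08), which ends the call, and without the 5% of cells with the most UMIs it was 27.5. Of 5 measured cell cycle genes 1 was higher, Cenpa, a centromeric histone, at 58.8 CPM in DPCP and 14.4 CPM in control members. After removal of members holding a Cd207, Epcam or Cldn1 UMI, the ratios of Cenpa, Hsph1 and Itgax were 1.9 (95% interval 0.756 to 5.67), 2.21 (95% interval 0.899 to 6.54) and 0.58 (95% interval 0.297 to 1.15), which ends these calls.

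**Figure D4:**
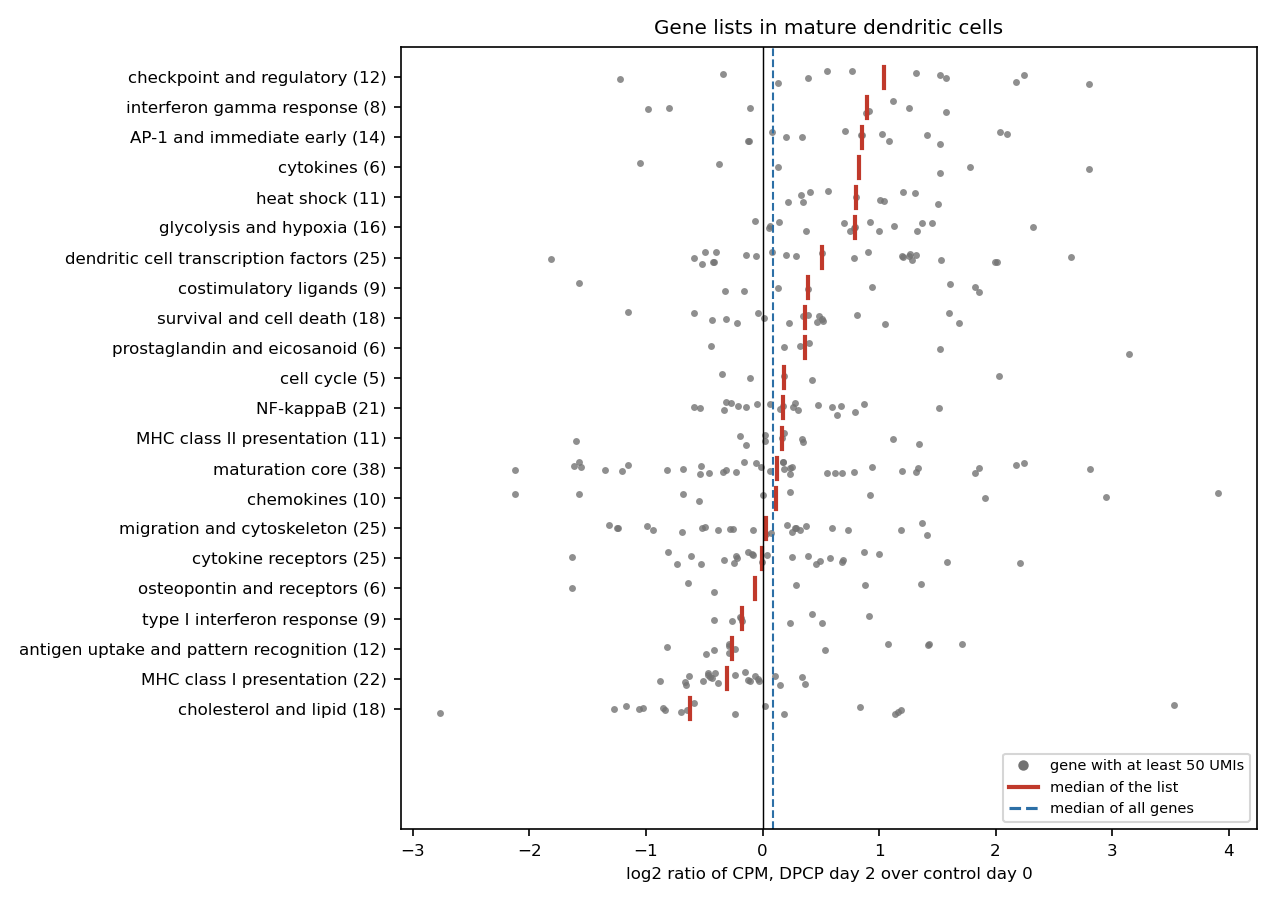
Each grey point is a gene with at least 50 summed UMIs, placed by its log2 ratio of DPCP over control members (x axis), the rows are the 22 lists with the number of such genes, the red bar is the list's median and the dashed line the median of all genes, 0.09. Checkpoint, interferon gamma, AP-1, cytokine, heat shock and glycolysis lists lie to the right and the cholesterol list to the left. Genes at 0 in control members are placed at a floor of 3 UMIs.

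Across all 4802 genes tested, 455 (9.48%) were at least 2-fold higher in DPCP members with an interval that excluded 1, and 179 (3.73%) were at least 2-fold lower. Slc22a4, a carnitine-related transporter, had 87 DPCP UMIs in 24 cells and 1 control UMI, a ratio of 34.2 (95% interval 5.97 to 1364). Plk2, a polo-like kinase, had 84 DPCP UMIs and 1 control UMI, a ratio of 33 (95% interval 5.76 to 1318), and Pgf, placental growth factor, 74 and 1, a ratio of 29.1 (95% interval 5.06 to 1163). With 0 control UMIs, Gabbr2, a GABA receptor subunit, was at least 17-fold higher (130 DPCP UMIs in 13 cells) and Procr, the protein C receptor, at least 15.1-fold (115 UMIs in 19 cells), against a floor of 3 UMIs over the control members. Also among the 12 highest ratios were Mylk, Oaf, Sox5, Slco3a1, March3 and Cxcl3. Without the highest cell of each condition, no control UMI of Slc22a4, Plk2, Pgf or Oaf was left. Set against the same floor, their ratios were at least 9.16, 7.86, 8.09 and 5.82. Without members holding a Cd207, Epcam or Cldn1 UMI, no control UMI of Sox5 was left. Its ratio of 0.632 (95% interval 0.313 to inf) was set against the floor of 3 UMIs and gives no direction.

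At the lower end, 5730522E02Rik, a noncoding transcript, was at 3.22 CPM in DPCP members (2 cells) and 195 CPM in control members (12 cells). St8sia6, a sialyltransferase, was in 8 of 71 DPCP and 21 of 35 control members, at 11.3 and 119 CPM. Adgre4, an adhesion receptor of myeloid cells, was in 5 DPCP and 17 control members, at 10.5 and 133 CPM, and Blnk, a signalling adaptor, in 9 and 15. Dnase1l3, a secreted nuclease of dendritic cells and macrophages, was at 9.67 CPM in DPCP and 170.3 CPM in control members. Gm20465 was in 8 DPCP and 20 control members, Ehf in 7 and 12, and Hecw2 in 8 and 11. Further low ratios rest on few cells. The highest control cell, taken separately for each gene, held 248 of 274 control UMIs of Sgcz, 57 of 63 of Chil3 and 40 of 56 of Cyp7b1. Without the highest cell of each condition the ratio was 0.329 for Sgcz and 0.845 (95% interval 0.30 to 2.71) for Chil3, which ends the call of Chil3. Without the limit on S100 UMIs the ratio was 0.174 for Adgre4 and 0.115 for Dnase1l3.

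Lineage markers differed among the members. Langerhans markers Cd207, the Birbeck granule lectin, Epcam, an adhesion molecule, and Cldn1, a tight junction claudin, were in 15, 15 and 18 of 71 DPCP members, and in 0, 6 and 2 of 35 control members. After thinning to 1000 UMIs, Cd207 stayed in 4.23% of DPCP members and 0% of control members, where the exact 95% interval for 0 of 35 reaches 10.0032%. In T cells the unthinned shares of Cd207 were 4.53% for DPCP and 2.21% for control, and those of Epcam 10.3% and 8.86%. Epcam was in 21.1% of DPCP and 17.1% of control members before thinning. At least 1 UMI of the 3 genes was held by 32 DPCP and 8 control members. This split, and the genes shown with it, were chosen after the values were seen.

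The DPCP members with such a UMI differed from those without in genes the split did not use, although Mfge8 is on the same marker list. Mfge8, a bridge between dying cells and phagocytes that Langerhans cells make (chromosome 7, 79133768 to 79149060, minus strand), was at 2534 CPM with and 56.8 CPM without in DPCP members. In control members it was at 183 CPM with and 159 CPM without. H2-M2 was at 473 CPM with and 27.0 CPM without in DPCP members, against 711 and 617 CPM in control members. Tnfrsf9 was at 1545 and 619 CPM, and Ly75 at 1476 and 640.4 CPM, in DPCP members with and without. The reverse order held for Cd80, at 303 and 489.9 CPM, Cd200, at 184 and 391.9 CPM, Stat4, at 596 and 1254 CPM, and Ccl5, at 208 and 839 CPM.

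Differences between the conditions were recomputed without these 32 DPCP and 8 control members, an alternative added after seeing the data. Mfge8 was at 1129 CPM in all DPCP members and 166 CPM in all control members, a ratio of 6.79 (95% interval 5.43 to 8.6), but without the cells holding a UMI of the 3 genes the ratio was 0.358 (95% interval 0.231 to 0.55), so its direction turned. Without them the ratio was 4.22 (95% interval 3.14 to 5.79) for Tnfrsf9, 2.17 (95% interval 1.75 to 2.72) for Cd86 and 0.427 (95% interval 0.382 to 0.478) for Ccl5, and each kept its direction. For H2-M2 the log2 ratio without them was -4.51.

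**Figure D5:**
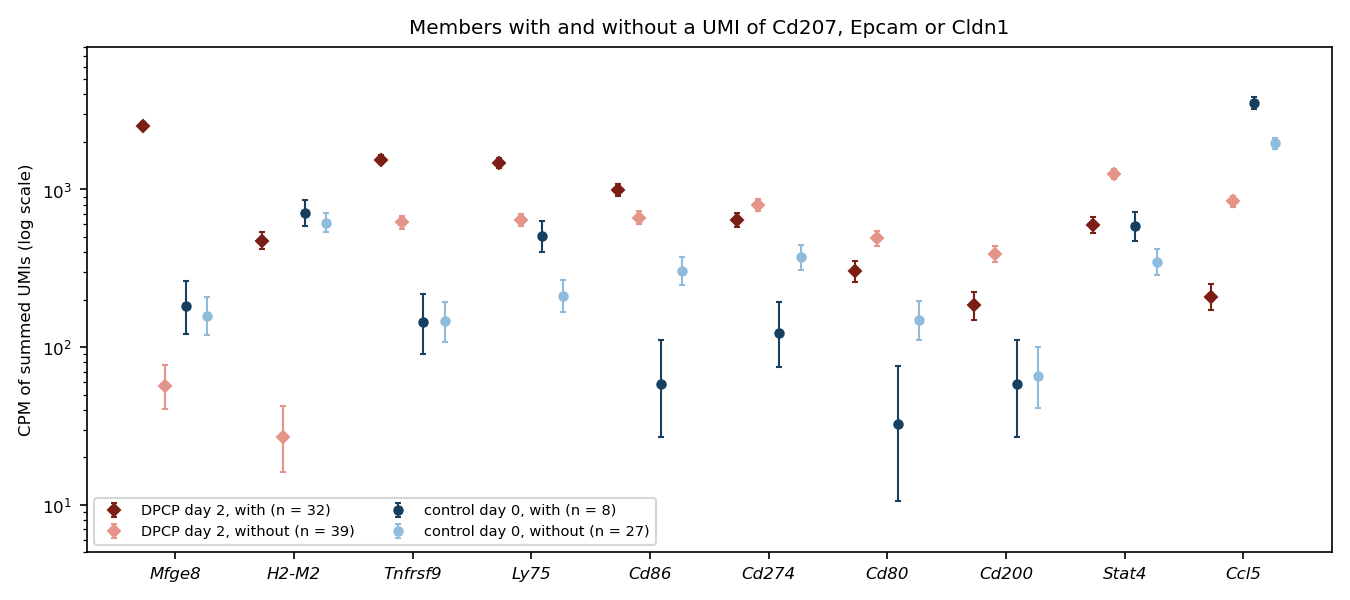
Levels of 10 genes as CPM of summed UMIs (log axis) in DPCP members with (32 cells, dark diamonds) and without (39 cells, light diamonds) a UMI of Cd207, Epcam or Cldn1, and in control members with (8, dark circles) and without (27, light circles). Bars are exact Poisson 95% intervals. Mfge8 and H2-M2 differ most between the DPCP cells with and without such a UMI, and much less between the control cells with and without one.

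Markers of other lineages were present at differing levels. Xcr1 and Clec9a, which define type 1 cells, were in 1 and 2 of 71 DPCP members and at 0 in control members. All 12 type 1 markers had a UMI in DPCP members and 8 of 12 in control members, with per-cell sums from 1.5 to 34.4 (median 10.1) per 10000 UMIs in DPCP members and from 0 to 26.0 (median 4.1) in control members, of which Irf8 is a part. Type 2 markers summed to 487 CPM in DPCP and 349 CPM in control members, with 11 and 10 of 12 detected. After thinning, Cd209a, a lectin of type 2 cells, was in 2.82% of DPCP and 0% of control members, against 1.23% and 2.95% of T cells. Sirpa, an inhibitory receptor of type 2 and Langerhans cells, was in 25.4% of DPCP and 11.4% of control members, against 9.47% and 11.4% of T cells. Mgl2, another lectin, was in 8.45% of DPCP and 2.86% of control members, against 0.412% and 2.95% of T cells. The type 2 markers thus did not all stand in the same relation to T cells. Plasmacytoid markers summed to 902 CPM in DPCP and 648 CPM in control members, with 5 and 4 of 8 detected and a highest cell of 104 and 30.6 per 10000 UMIs. Before thinning, Siglech and Ly6d were each in 1.41% of DPCP and 0% of control members, Ccr9 was in 0% and 2.86%, and Klk1 and Cox6a2 were in none. Bst2, Tcf4 and Runx2 were in 77.5%, 70.4% and 63.4% of DPCP members, but also in 67.9%, 54.7% and 81.5% of DPCP T cells. Sirpa and Mgl2 were chosen after their values were seen. Macrophage markers summed to 155 CPM in DPCP and 144 CPM in control members, T cell markers to 35.4 and 8.2 CPM, and neutrophil markers to 745 and 572 CPM. The part of transcripts from other cells in these sums and in the results was not tested.

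Promoters were read for genes of the maturation and checkpoint groups, since many of them are known targets of NF-kappaB. Of 24 genes looked up, 15 were in the RefSeq promoter table (build GRCm38.p6, 250 bases before to 50 after the start), and 3 of these had a match to the kappaB motif on either strand. The motif occurs in 8.46% of all 32851 promoters of this length (2779). That share counts promoters, whereas the 3 of 15 counts genes, some with more than 1 promoter, so they are not directly comparable. The match, in Tnfrsf9 a pair of overlapping matches, is shown in capitals in 1 promoter each of Pdcd1lg2 (chr19:29410669-29410968, plus strand) and Tnfrsf9 (chr4:150927749-150928048, plus strand), both higher in DPCP members. The other gene with a match was Nfkb2. A further Tnfrsf9 promoter (chr4:150919905-150920204) had no match.
Pdcd1lg2: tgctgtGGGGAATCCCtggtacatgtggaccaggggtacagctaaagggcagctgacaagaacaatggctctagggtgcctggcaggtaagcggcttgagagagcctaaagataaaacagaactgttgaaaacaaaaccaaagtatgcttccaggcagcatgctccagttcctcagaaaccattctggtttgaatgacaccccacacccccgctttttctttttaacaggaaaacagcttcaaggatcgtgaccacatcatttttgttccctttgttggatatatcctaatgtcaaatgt
Tnfrsf9: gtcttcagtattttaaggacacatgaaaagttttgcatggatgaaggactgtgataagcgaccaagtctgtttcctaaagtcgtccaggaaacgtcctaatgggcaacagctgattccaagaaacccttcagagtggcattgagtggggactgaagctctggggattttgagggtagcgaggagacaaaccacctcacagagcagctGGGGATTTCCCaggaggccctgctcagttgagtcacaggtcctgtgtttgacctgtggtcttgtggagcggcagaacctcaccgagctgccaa
Nfkb2 itself was at 239 CPM in DPCP and 211 CPM in control members. Cd80, Cd274 and Cd200 had no match in their windows and were higher in DPCP members as well.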

How the data were processed

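Single-cell RNA of CD45-sorted skin cells was measured in 1 pooled 10x library with CellPlex tags. The UMI counts per gene and barcode were made by the authors with Cell Ranger (7.0.0 per the file headers, 6.1.1 per the submitters' processing notes) on mm10, and were deposited unnormalized. Barcodes were assigned to conditions by their suffix through the deposited aggregation table. Barcodes under 200 genes or above 10% mitochondrial UMIs were left out. No doublet caller was run. The selection requires Cd3e at 0 and limits S100 UMIs, and alternatives left out the cells with the most UMIs.

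The members and the gene lists were chosen with earlier results of these data known. UMIs were summed per condition as CPM with exact Poisson intervals, and ratios of DPCP over control carry exact conditional binomial 95% intervals (scipy 1.17.1, pandas 2.3.3, Python 3.11.15). A gene was called at 50 summed UMIs, 20 CPM in the higher condition, a ratio of at least 2 or at most 0.5 (1.5 within lists) and an interval that excludes 1, with the selection genes left out. This step was tested on simulated data. Scaling factors came from edgeR 4.0.16. Genes named were the 12 highest and 12 lowest ratios, the 6 markers, the 10 highest levels and, per list, the extreme ratios and highest levels. Others are said to be chosen after their values were seen. Shares carry Clopper-Pearson intervals, and cells were thinned to 1000 UMIs to compare shares of cells. Some genes that the rule names are not reported here.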

Additional observations from a re-analysis of the deposited data

How the results depend on the processing

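No paired analysis was possible because each condition is 1 tagged sample. With Ccr7 at 4 or more UMIs, the log2 ratio of Chil3 was 0.39. With S100a8 and S100a9 under 3 UMIs together the member share was 0% in DPCP skin and 0.141% in control skin, so no ratio could be formed. Without the 5% of kept cells with the most UMIs, a cut that removed a larger part of the DPCP members, the DPCP share was 0.61% and 299 genes were higher. At a minimum of 10 summed UMIs, 412 genes were lower. At a minimum of 200, 135 were higher, 44 were lower and the cytokine list had a median log2 ratio of -0.37. Without members holding a Cd207, Epcam or Cldn1 UMI, 296 genes were higher, and the log2 ratios of Bcl2l14, Sox5 and Mfge8 were 0.35, -0.66 and -1.48. The Sox5 value was set against a floor of 3 control UMIs, as none was left. The cause of these shifts was not tested, apart from fewer genes or cells by construction. Among members with at least 80% own tag the log2 ratio of Tnfsf4 was -0.15, and without the highest cell of each condition that of Ppbp, set against a floor of 3 control UMIs, was -0.61. Of 1791 recomputed log2 ratios of 128 named genes over 14 settings, 1548 stayed within the 95% interval of the value reported. The sign changed in 49 of them, in 21 genes, and 6 of these values belong to genes called at 2-fold. Among these 6 are Sox5 and Ppbp, whose sign rests on the floor of 3 control UMIs. Dropping the cell filter left the calls as they were, at 455 higher and 179 lower. The edgeR scaling factors were 1.00483 for DPCP and 0.995189 for control. Agreement in these settings was thus fixed or nearly so. With 44 DPCP members of at least 80% own tag, 338 genes were higher and 180 lower. Genes with few UMIs are limited by depth, and differences between animals cannot be told apart from differences between conditions.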

Other observations

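Of the genes with at least 50 summed UMIs in the members, 12 had over 50% of their UMIs in a single cell. Ppbp, a platelet chemokine, had 57 of its 62 DPCP UMIs in 1 member and none in control members. Cxcl1, a neutrophil attractant, had 41 of 59 DPCP UMIs in 1 member and none in control members. Satb1, a chromatin organizer, had 109 of 192 DPCP UMIs in 1 member, and 13 UMIs in control members. Ror1, a receptor tyrosine kinase, had 50 of 72 DPCP UMIs in 1 member, and 7 UMIs in control members. These genes were chosen after their values were seen.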
